A study of Mus musculus with 18 samples.

Results

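The RNA levels of 9 genes of the NRF2 antioxidant pathway were measured in cultured mouse natural killer (NK) cells. The genes were chosen as a named pathway, with earlier results of these data known: Nfe2l2, which encodes NRF2, its inhibitor gene Keap1, and the antioxidant genes Gclc, Gclm, Gsr, Txnrd1, Srxn1, Prdx1 and Hmox1. All 9 matched an Ensembl identifier among the 56953 genes of the deposited tables, and all 9 were among the 16747 genes that passed the filter on low counts. NK cells are lymphocytes that can destroy infected and tumour cells; these came from mouse spleen, were grown for 7 days with interleukin 2 at 1700 U/ml under 1% oxygen, and were profiled by bulk RNA sequencing. There were 18 libraries, 3 labelled biological replicates in each of 6 groups. Hif1a KO cells carried loxP-flanked (flox) Hif1a alleles and an improved Cre recombinase (iCre) driven from Ncr1, a gene of NK cells and some innate lymphoid cells, and Hif1a flox cells carried the same flox alleles without iCre. Ahr KO cells carried flox Ahr alleles with Ncr1 iCre, against Ahr flox cells without it. Hif1a Ahr KO cells carried flox alleles of both genes with Ncr1 iCre, against Hif1a Ahr flox cells without it. Every group was kept in low oxygen and every KO group carried iCre, so the loss of a gene and the presence of iCre cannot be told apart within a line, and no culture in normal oxygen was analysed here. The labels give no age or sex of the animals and do not say whether animals were pooled.

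NRF2 is a transcription factor that KEAP1 holds in the cytoplasm and passes to a CUL3 ubiquitin ligase for destruction. Oxidants and electrophiles modify cysteines of KEAP1, after which NRF2 accumulates, pairs with small MAF proteins and binds antioxidant response elements near genes for glutathione synthesis, the thioredoxin system, NADPH supply and heme breakdown. Hif1a encodes HIF-1α, the oxygen-regulated subunit of a transcription factor that acts in low oxygen, and Ahr encodes AhR, the aryl hydrocarbon receptor, which activates transcription once bound by a ligand; Nqo1 is a textbook target of both NRF2 and AhR. NRF2 is regulated largely at the level of its protein, which RNA does not show.

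RefSeq promoter windows of build GRCm38.p6, running from 250 bases before to 50 bases after an annotated transcription start, were found for 6 of the 9 genes, in 8 windows. They were searched on both strands for the core of the antioxidant response element, TGACNNNGC, for the hypoxia response element core ACGTG and for the dioxin response element core GCGTG, at which HIF-1 and AhR bind. The antioxidant core stood in 5 of the 8 windows, 1 each for 5 of the 6 genes, against 12.4% of all 32851 RefSeq windows of this length. The hypoxia core stood in 2 of the 8 windows, against 19.6% of all windows, and the dioxin core in 6 of the 8, 3 of them windows of Txnrd1, against 32.4% of all windows. No match of one motif overlapped a match of another. Most of these genes are known NRF2 targets, so the share is a description of a chosen group. The 5 windows with the antioxidant core are printed because their genes include the 3 that rose in both lines with Hif1a deleted (Gclm, Nfe2l2 and Txnrd1) and 2 that rose in 1 of those lines each (Srxn1 and Prdx1). They are written 5′ to 3′ on the strand of the gene, with the antioxidant core in capitals, which appears as its reverse complement where the match is on the other strand. The Gclm window is chr3:122245307-122245606 (plus strand), with the antioxidant core at position -134 from the start and a hypoxia core at -67. The Nfe2l2 window is chr2:75704614-75704913 (minus strand), the Txnrd1 window chr10:82858956-82859255 (plus strand, 1 of 3 annotated starts), the Srxn1 window chr2:152105274-152105573 (plus strand) and the Prdx1 window chr4:116685349-116685648 (plus strand).
Gclm: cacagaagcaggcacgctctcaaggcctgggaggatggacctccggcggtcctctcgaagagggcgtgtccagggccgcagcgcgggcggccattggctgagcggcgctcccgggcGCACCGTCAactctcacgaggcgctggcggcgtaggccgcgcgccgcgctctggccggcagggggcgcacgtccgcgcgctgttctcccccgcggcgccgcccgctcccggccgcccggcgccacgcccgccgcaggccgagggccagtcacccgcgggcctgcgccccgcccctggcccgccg
Nfe2l2: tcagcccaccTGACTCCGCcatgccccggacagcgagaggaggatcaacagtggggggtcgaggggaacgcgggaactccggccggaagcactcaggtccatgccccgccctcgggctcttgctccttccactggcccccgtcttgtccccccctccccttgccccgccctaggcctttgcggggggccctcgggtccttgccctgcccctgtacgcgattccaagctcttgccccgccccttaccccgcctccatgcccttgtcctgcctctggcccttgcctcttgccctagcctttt
Txnrd1: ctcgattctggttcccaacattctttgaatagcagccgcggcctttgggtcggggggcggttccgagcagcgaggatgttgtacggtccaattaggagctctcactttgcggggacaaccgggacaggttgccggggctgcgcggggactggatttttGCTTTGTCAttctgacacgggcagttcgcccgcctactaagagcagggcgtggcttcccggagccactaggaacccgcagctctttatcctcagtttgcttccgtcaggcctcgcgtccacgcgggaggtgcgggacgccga
Srxn1: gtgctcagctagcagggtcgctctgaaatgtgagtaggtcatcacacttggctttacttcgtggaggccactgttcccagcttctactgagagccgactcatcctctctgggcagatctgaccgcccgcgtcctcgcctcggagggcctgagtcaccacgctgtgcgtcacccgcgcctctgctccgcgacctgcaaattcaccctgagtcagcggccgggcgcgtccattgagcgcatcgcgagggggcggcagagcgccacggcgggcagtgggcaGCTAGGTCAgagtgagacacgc
Prdx1: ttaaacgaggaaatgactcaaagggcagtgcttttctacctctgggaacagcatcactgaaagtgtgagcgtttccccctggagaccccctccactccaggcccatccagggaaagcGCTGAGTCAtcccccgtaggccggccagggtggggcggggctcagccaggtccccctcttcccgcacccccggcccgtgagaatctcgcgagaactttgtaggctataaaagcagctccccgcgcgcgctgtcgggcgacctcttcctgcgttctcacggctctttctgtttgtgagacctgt
Taken all together, the printed cores share only their fixed letters, though single pairs of them share further letters. No antioxidant core was found in the Keap1 window, chr9:21239283-21239582 (minus strand), which held 1 hypoxia core and 2 dioxin cores. A match shows the letters alone; whether NRF2, HIF-1 or AhR bound any of these windows in these cells was not measured.

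**Figure D1:**
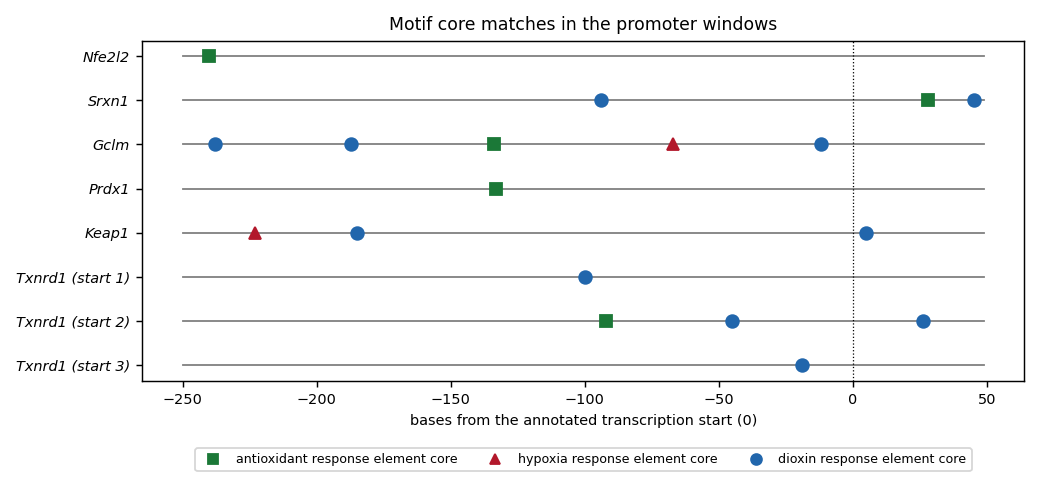
Positions of motif core matches in the 8 promoter windows of 6 genes, in bases from the annotated transcription start on the x axis (each line is 1 window, symbols mark matches on either strand). The antioxidant core lies in 5 windows, at -240 for Nfe2l2, -134 for Gclm, -133 for Prdx1, -92 for the second Txnrd1 start and 28 for Srxn1.

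Library totals lay between 54420649 and 55732940 estimated counts, and the 9 genes had between 364 counts (the lowest Gclm library) and 21126 counts (the highest Prdx1 library). Values below are CPM, a gene's counts per 1000000 counts of its library after scaling with TMM factors; they are not divided by gene length. Changes are log2 ratios of KO over flox with their standard error (SE), and adjusted p is that of edgeR's quasi-likelihood F test with Benjamini-Hochberg (BH) adjustment over the 16747 genes; a gene was called, and is said to have risen or fallen, at an adjusted p under 0.05. Hif1a itself stood at 146.6 to 210.5 CPM in Hif1a KO cells and 56.5 to 64.9 CPM in Hif1a flox cells. The Hif1a Ahr line had it at 170.4 to 220.0 CPM in Hif1a Ahr KO cells and 58.2 to 62.4 CPM in Hif1a Ahr flox cells. Ahr stood at 88.6 to 97.0 CPM in Ahr KO cells and 73.9 to 78.5 CPM in Ahr flox cells, and at 41.4 to 68.2 CPM in Hif1a Ahr KO cells and 52.2 to 78.1 CPM in Hif1a Ahr flox cells. In the Hif1a line Ahr was at 35.2 to 56.0 CPM in Hif1a KO cells and 27.7 to 39.3 CPM in Hif1a flox cells. Every Hif1a flox library was thus below every Ahr flox and Hif1a Ahr flox library for Ahr. Counts over a whole gene include exons outside the deleted stretch, so these levels do not check the deletions, and KO below is the labels' name for the group. The 8 NK cell markers summed to 12240.9 to 13985.3 CPM in Hif1a KO cells and 17967.6 to 21907.1 CPM in Hif1a flox cells, without overlap. The largest part of both sums was Gzmb, which averaged 10220.7 CPM in Hif1a KO and 14380.7 CPM in Hif1a flox cells. The 8 markers summed to 22261.9 to 26600.4 CPM in Ahr KO cells and 16370.2 to 22636.5 CPM in Ahr flox cells, and to 16240.1 to 17440.7 CPM in Hif1a Ahr KO cells and 16390.5 to 21015.0 CPM in Hif1a Ahr flox cells. In Hif1a KO cells 3 of them rose (Ncr1, Klrk1 and Klrd1) and 3 fell (Eomes, Gzmb and Prf1, the last to 715.9 CPM on average, against 3575.6 CPM in Hif1a flox cells). In Ahr KO cells 2 rose (Ncr1 and Eomes) and in Hif1a Ahr KO cells 3 (Ncr1, Klrb1c and Eomes), with no fall. Ncr1, the gene from which iCre is driven, thus rose in all 3 KO groups, by 0.92 in Hif1a KO, 0.97 in Ahr KO and 1.06 in Hif1a Ahr KO cells. Eomes fell in Hif1a KO cells (-0.60) and rose in Ahr KO (0.75) and Hif1a Ahr KO cells (0.77). B cell and erythroid markers summed to under 1 CPM in every library. Summed T cell markers were lower in all 3 KO groups than in their flox groups, at 21.7 to 34.2 against 78.2 to 113.5 CPM in the Hif1a line, 51.4 to 55.8 against 101.3 to 123.3 CPM in the Ahr line and 21.9 to 54.1 against 129.5 to 145.3 CPM in the Hif1a Ahr line. Of these 6 markers, Cd3d and Cd3g fell in all 3 lines and Trac in Hif1a KO cells, and no other call was made. The median log2 change of the 6 was -0.68 in Hif1a KO, 0.38 in Ahr KO and -0.52 in Hif1a Ahr KO cells. Trac averaged 11.3 CPM in Ahr KO and 11.1 CPM in Ahr flox cells, and 13.1 CPM in both Hif1a Ahr groups. Neutrophil markers summed to at most 0.0853 CPM in Hif1a KO cells, against 1.08 to 5.46 CPM in Hif1a flox cells. In the other lines they summed to 0.348 to 1.3 CPM in Ahr KO cells, against 0.346 to 1.39 CPM in Ahr flox cells, and to at most 0.143 CPM in Hif1a Ahr KO cells, against 0.837 to 5.23 CPM in Hif1a Ahr flox cells. The part of these other cells in the results below was not tested, and in bulk RNA fewer cells of a type and less RNA per cell cannot be told apart.

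Hif1a KO cells had higher RNA of Nfe2l2 and of the genes for both subunits of glutathione's first enzyme and for 2 enzymes of the thioredoxin system, while Keap1 RNA was lower. Among the 9 genes, 5 rose in Hif1a KO cells (Nfe2l2, Gclm, Txnrd1, Gclc and Prdx1), a share of 55.6%, where 17.6% of all genes tested rose. Keap1 fell, 11.1% of the 9 genes, where 17.8% of all genes tested fell. Without TMM scaling 7 of the 9 rose and none fell. Over all genes tested, rises then numbered 4117, against 2948 with the scaling, and falls 2155, against 2975. The median change of the 9 was 0.39, against -0.01 over all genes tested. In Ahr KO cells none of the 9 rose (2.14% of all genes tested rose) and Nfe2l2 fell (4.78% of all genes tested fell), with a median of -0.12 against 0.0 over all genes. With both genes deleted 5 rose (Nfe2l2, Gclm, Txnrd1, Srxn1 and Gsr), where 14.8% of all genes tested rose, and Keap1 fell, where 16.5% fell; the median was 0.24 against -0.02 over all genes. The 3 comparisons share no libraries. Gclm, Nfe2l2 and Txnrd1 were the 3 genes that rose in both lines with Hif1a deleted, Keap1 fell in both, and Nfe2l2 both rose in Hif1a KO cells and fell in Ahr KO cells. The shares of all genes tested with such calls in 2 lines are not given here.

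**Figure D2:**
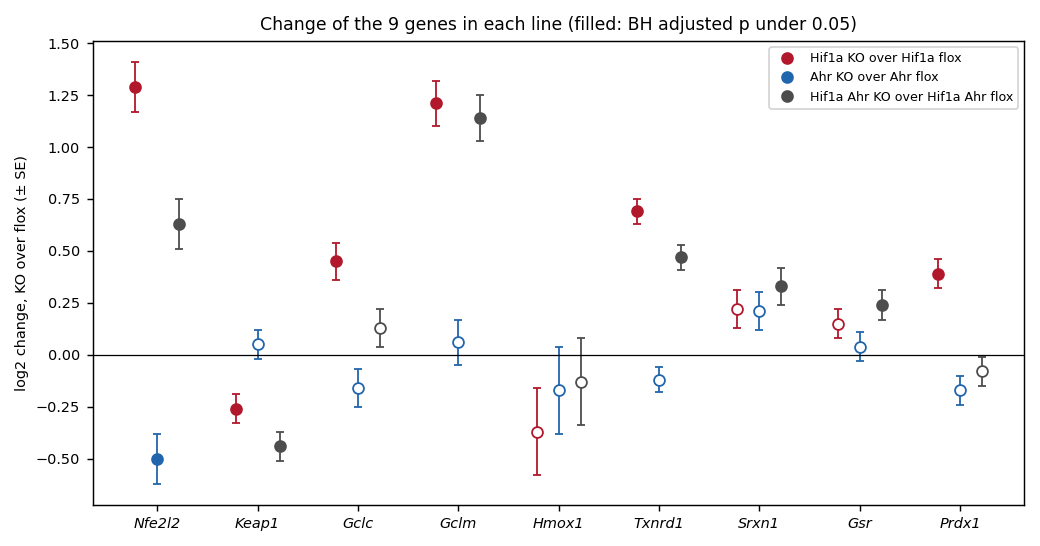
Log2 change of each of the 9 genes, KO over flox, on the y axis (points, ± SE from edgeR), with Hif1a KO, Ahr KO and Hif1a Ahr KO side by side and filled points where the BH adjusted p was under 0.05. Nfe2l2 and Gclm show the largest rises in Hif1a KO cells among the 9, at 1.29 and 1.21, and the Ahr KO points lie between -0.50 and 0.21.

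Nfe2l2, the gene for NRF2 itself, was at 58.4, 62.2 and 56.5 CPM in Hif1a KO cells, against 22.3, 26.4 and 23.7 CPM in Hif1a flox cells. All 3 Hif1a KO libraries were above all 3 flox libraries, a 2.45-fold rise (1.29 ± 0.12, adjusted p = 2.63e-07). The Ahr line went the other way, with 21.3, 17.1 and 19.4 CPM in Ahr KO cells and 32.7, 23.0 and 25.8 CPM in Ahr flox cells. These groups did not overlap either, and Nfe2l2 fell by 0.50 on the log2 scale (SE 0.12, adjusted p = 0.0171). That call was lost without Ahr flox replicate 1, the highest library of its group (-0.343, adjusted p = 0.121), without Ahr KO replicate 2, the lowest of its group (adjusted p = 0.102), without Ahr KO replicate 3 (adjusted p = 0.0541) and in a fit to the Ahr line alone (adjusted p = 0.0525). Cells with both genes deleted lay in between, at 42.3, 40.4 and 44.7 CPM in Hif1a Ahr KO cells, against 28.2, 23.3 and 30.6 CPM in Hif1a Ahr flox cells. They were higher in every library, a 1.55-fold rise (0.63 ± 0.12, adjusted p = 5.02e-04). In order of mean level, Nfe2l2 ran from Hif1a KO (59.1 ± 2.9 CPM, SD, n = 3) and Hif1a Ahr KO (42.5 ± 2.14) through the 3 flox groups, at 24.1 to 27.4 CPM, to Ahr KO (19.3 ± 2.12). The 3 flox groups overlapped one another and did not pass a test of their differences (adjusted p = 0.794).

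Keap1, the gene for the adaptor that targets NRF2 for destruction, was at 59.0, 64.7 and 58.9 CPM in Hif1a KO cells and 72.2, 69.7 and 76.4 CPM in Hif1a flox cells. The groups did not overlap, and Keap1 fell by 0.26 on the log2 scale (SE 0.07, adjusted p = 0.00655). That call was lost without TMM scaling (-0.154, adjusted p = 0.113), under which the median of all genes was 0.09, against -0.01 with it. In the Ahr line Keap1 was at 81.6, 75.5 and 74.5 CPM in Ahr KO cells and 76.0, 75.9 and 71.5 CPM in Ahr flox cells, overlapping groups with a change of 0.05 ± 0.07 (adjusted p = 0.751). With both genes deleted it was at 57.0, 48.3 and 53.1 CPM in Hif1a Ahr KO cells, against 68.3, 70.7 and 76.3 CPM in Hif1a Ahr flox cells. Every Hif1a Ahr KO library was below every flox library, and Keap1 fell by 0.44 on the log2 scale (SE 0.07, adjusted p = 8.23e-05).

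The annotation places Gm16754, an antisense gene on chromosome 9, across 3317 bases of Keap1 on the opposite strand. It was looked up because it overlaps a member and its values were seen before it was named. Gm16754 was at 0.823, 0.783 and 0.5 CPM in Hif1a KO cells, against 14.2, 15.5 and 14.1 CPM in Hif1a flox cells. Every Hif1a KO library was under 1 CPM, and Gm16754 fell by 4.37 on the log2 scale (SE 0.19, adjusted p = 8.94e-12). Hif1a Ahr KO cells had 1.4, 0.747 and 0.996 CPM of Gm16754, against 17.8, 15.4 and 14.9 CPM in Hif1a Ahr flox cells, a fall of 3.93 (SE 0.18, adjusted p = 3.87e-11). In the Ahr line the groups overlapped, at 15.8, 12.9 and 14.3 CPM in Ahr KO cells and 16.9, 15.1 and 14.5 CPM in Ahr flox cells (-0.11 ± 0.15, adjusted p = 0.746). The Hif1a effect on Gm16754 differed from the Ahr effect by -4.26 ± 0.23 (adjusted p = 8.60e-10). The libraries are strand-specific per the labels, but whether the counting used the strand is not stated in the sources used here, so reads of Keap1 and of its antisense gene cannot be told apart with certainty. Gclm and Txnrd1 also overlap other annotated genes: Gm17494, opposite Gclm, averaged 9.99 CPM over the 18 libraries and was called in no line, and Gm38560, opposite Txnrd1, averaged 1.06 CPM and rose in Hif1a KO cells (0.58 ± 0.20, adjusted p = 0.0292). The Gm38560 call was lost without Hif1a KO replicate 1 (adjusted p = 0.0679), Hif1a KO replicate 2 (0.116) or Hif1a flox replicate 3 (0.144), without the filter on low counts (0.0922) and in a fit to that line alone (0.0699).

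**Figure D3:**
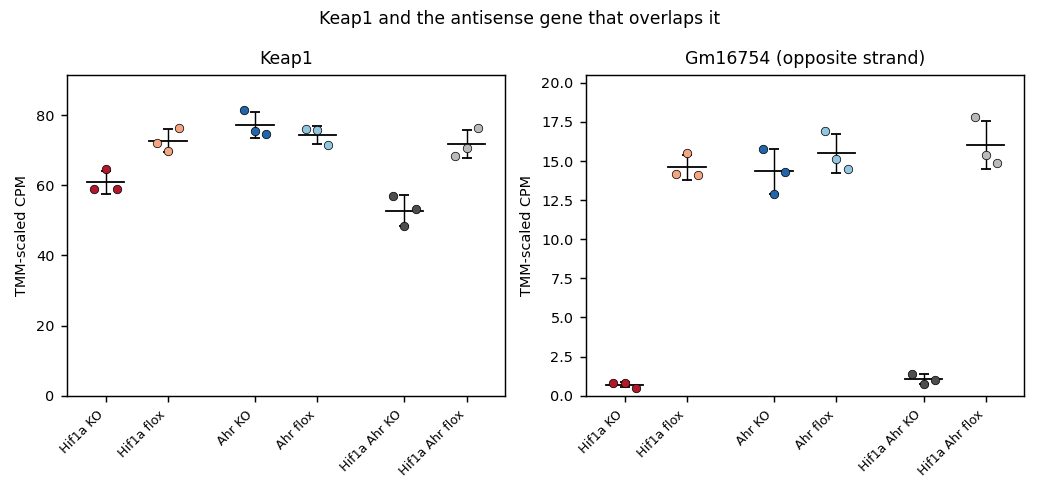
TMM-scaled CPM of Keap1 (left panel) and of Gm16754, the antisense gene that overlaps it (right panel), in each library by group (points), with mean and SD of 3 libraries (lines). Gm16754 lies at 0.5 to 1.4 CPM in the 6 libraries with Hif1a deleted and at 12.9 to 17.8 CPM in the other 12, while Keap1 lies at 48.3 to 64.7 CPM and 68.3 to 81.6 CPM in the same sets.

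Glutathione is made by glutamate-cysteine ligase, whose modifier subunit is encoded by Gclm and whose catalytic subunit is encoded by Gclc, and is recycled by glutathione reductase, encoded by Gsr. Gclm was at 16.4, 19.9 and 18.6 CPM in Hif1a KO cells, against 6.88, 8.21 and 8.64 CPM in Hif1a flox cells. It rose 2.31-fold with no overlap (1.21 ± 0.11, adjusted p = 1.42e-07). Hif1a Ahr KO cells showed a rise of like size, with 16.5, 17.3 and 17.4 CPM against 7.23, 8.27 and 7.72 CPM in Hif1a Ahr flox cells (1.14 ± 0.11, adjusted p = 2.90e-07). In the Ahr line Gclm was at 8.73, 9.56 and 9.99 CPM in Ahr KO cells and 8.48, 10.4 and 8.33 CPM in Ahr flox cells, overlapping groups with a change of 0.06 ± 0.11 (adjusted p = 0.841). The 2 groups with Hif1a deleted thus held the 6 highest Gclm libraries, and the other 12 lay between 6.88 and 10.4 CPM.

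Gclc moved less than its partner. It was at 45.3, 50.7 and 50.5 CPM in Hif1a KO cells, against 32.9, 40.9 and 33.5 CPM in Hif1a flox cells, a 1.36-fold rise without overlap (0.45 ± 0.09, adjusted p = 5.67e-04). In Ahr KO cells it was at 35.9, 32.6 and 38.8 CPM, against 38.6, 39.4 and 41.7 CPM in Ahr flox cells (-0.16 ± 0.09, adjusted p = 0.331), with overlap. Hif1a Ahr KO cells had 43.5, 42.1 and 44.1 CPM, against 41.8, 35.7 and 41.3 CPM in Hif1a Ahr flox cells. The KO libraries were again the higher, but by 0.13 ± 0.09, which did not pass the test (adjusted p = 0.288).

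Gsr was at 73.1, 74.2 and 83.0 CPM in Hif1a KO cells and 71.4, 65.8 and 69.9 CPM in Hif1a flox cells. The groups did not overlap, yet the change of 0.15 ± 0.07 did not pass the test (adjusted p = 0.103); it did with the replicate number as a block, which pairs KO and flox libraries in this line (adjusted p = 0.0358), and without TMM scaling (0.254, adjusted p = 0.00279). In the Ahr line Gsr was at 62.4, 72.8 and 70.9 CPM in Ahr KO cells and 60.8, 69.1 and 70.2 CPM in Ahr flox cells, with overlap (0.04 ± 0.07, adjusted p = 0.808). Hif1a Ahr KO cells had 79.7, 80.4 and 77.0 CPM, against 67.4, 68.3 and 64.6 CPM in Hif1a Ahr flox cells, and Gsr rose there (0.24 ± 0.07, adjusted p = 0.0137).

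**Figure D4:**
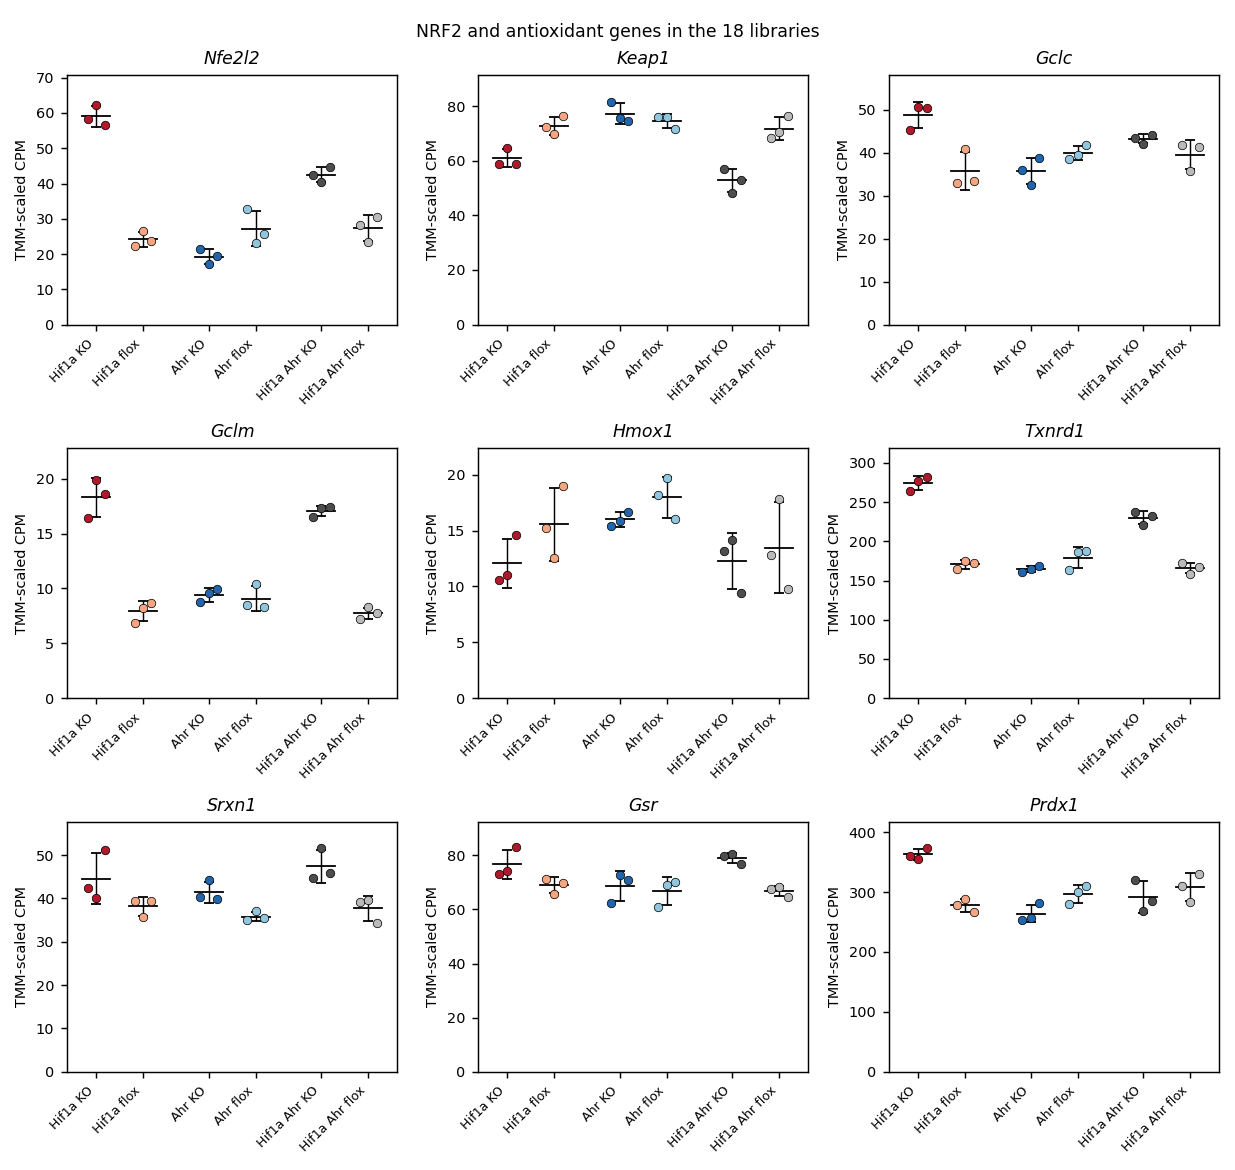
TMM-scaled CPM on the y axis (linear, from 0) of the 9 genes in each of the 18 libraries (points), by group, with mean and SD of 3 libraries (lines). The Hif1a KO and Hif1a Ahr KO libraries lie above all other libraries for Nfe2l2 (40.4 to 62.2 CPM), Gclm (16.4 to 19.9 CPM) and Txnrd1 (220.6 to 282.4 CPM), and the Hmox1 groups overlap in every line.

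In the thioredoxin system, Txnrd1 encodes the cytosolic thioredoxin reductase, Prdx1 a peroxiredoxin that removes peroxides, and Srxn1 the sulfiredoxin that restores over-oxidized peroxiredoxins. Txnrd1 was at 264.3, 276.6 and 282.4 CPM in Hif1a KO cells, against 164.5, 175.5 and 171.8 CPM in Hif1a flox cells. The groups lay far apart, a 1.61-fold rise with the smallest adjusted p of the 9 genes in that line (0.69 ± 0.06, adjusted p = 1.38e-07). Hif1a Ahr KO cells had 236.9, 220.6 and 231.9 CPM, against 172.0, 158.6 and 167.5 CPM in Hif1a Ahr flox cells, a 1.38-fold rise with no overlap (0.47 ± 0.06, adjusted p = 1.24e-05). The Ahr line overlapped, at 160.7, 164.5 and 168.3 CPM in Ahr KO cells and 163.6, 186.5 and 187.6 CPM in Ahr flox cells (-0.12 ± 0.06, adjusted p = 0.26).

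Prdx1 was at 360.7, 355.3 and 373.4 CPM in Hif1a KO cells, against 277.6, 288.7 and 266.4 CPM in Hif1a flox cells. Every Hif1a KO library was the higher, a 1.31-fold rise (0.39 ± 0.07, adjusted p = 4.72e-04). In Ahr KO cells it was at 254.0, 256.9 and 281.0 CPM, against 280.7, 300.0 and 309.9 CPM in Ahr flox cells, which overlapped by the closest pair of libraries (-0.17 ± 0.07, adjusted p = 0.193). With both genes deleted the groups overlapped more widely, at 320.6, 269.0 and 285.4 CPM in Hif1a Ahr KO cells and 310.7, 283.9 and 330.0 CPM in Hif1a Ahr flox cells (-0.08 ± 0.07, adjusted p = 0.453).

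Srxn1 was at 42.3, 40.1 and 51.2 CPM in Hif1a KO cells and 39.3, 35.7 and 39.4 CPM in Hif1a flox cells. The lowest Hif1a KO library was above the highest flox library, but the change of 0.22 ± 0.09 did not pass the test (adjusted p = 0.0523). It passed with the replicate block (adjusted p = 0.0163), without Hif1a KO replicate 2 (0.295, adjusted p = 0.0213) and without TMM scaling (0.325, adjusted p = 0.00375). The Ahr line gave 40.3, 44.2 and 39.8 CPM in Ahr KO cells and 34.9, 37.0 and 35.4 CPM in Ahr flox cells, again with every KO library higher (0.21 ± 0.09, adjusted p = 0.169, or 0.0479 with the replicate block). In Hif1a Ahr KO cells Srxn1 was at 44.6, 51.6 and 45.9 CPM, against 39.2, 39.6 and 34.3 CPM in Hif1a Ahr flox cells, and rose (0.33 ± 0.09, adjusted p = 0.00739). Without Hif1a Ahr KO replicate 2 that call was lost (0.264, adjusted p = 0.0512). The Srxn1 KO libraries thus lay above the flox libraries in all 3 lines, though only the Hif1a Ahr change passed the main test. The share of all genes tested with such a separation is not given here. The Srxn1 changes in Hif1a KO and Ahr KO cells differed by 0.01 ± 0.12 (adjusted p = 0.952).

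Hmox1 encodes heme oxygenase 1, which breaks down heme and is strongly expressed by macrophages. It was at 10.6, 11.0 and 14.6 CPM in Hif1a KO cells and 15.2, 12.5 and 19.0 CPM in Hif1a flox cells, overlapping groups whose change of -0.37 ± 0.21 did not pass the test (adjusted p = 0.193). With the replicate block, each Hif1a KO library being below the flox library of its number, Hmox1 was called lower (-0.361, adjusted p = 0.00855). In the Ahr line it was at 15.4, 15.9 and 16.7 CPM in Ahr KO cells and 18.2, 19.7 and 16.0 CPM in Ahr flox cells (-0.17 ± 0.21, adjusted p = 0.739). In the Hif1a Ahr line it was at 13.2, 14.2 and 9.39 CPM in Hif1a Ahr KO cells and 12.8, 17.8 and 9.74 CPM in Hif1a Ahr flox cells (-0.13 ± 0.21, adjusted p = 0.687). Hmox1 had the widest SE of the 9 genes in all 3 lines.

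Markers of macrophages and monocytes were read from the same libraries. Their summed level was 0.802 to 2.0 CPM in Hif1a KO cells and 4.24 to 9.88 CPM in Hif1a flox cells, 6.8 to 10.4 CPM in Ahr KO cells and 4.34 to 5.98 CPM in Ahr flox cells, and 2.76 to 4.93 CPM in Hif1a Ahr KO cells and 2.86 to 9.23 CPM in Hif1a Ahr flox cells. Of the 6 markers, 4 passed the filter, and 3 of these fell in Hif1a KO cells, none was called in Ahr KO cells, and 1 rose and 2 fell in Hif1a Ahr KO cells. Csf1r and Lyz2 fell in both lines with Hif1a deleted. Cd14 fell in Hif1a KO cells only and was not called with both genes deleted (0.16 ± 0.40, adjusted p = 0.806). Cd163 rose with both genes deleted, at a mean of 0.389 CPM against 0.061 CPM (2.63 ± 0.64, adjusted p = 0.00456). C1qa was at 0 in every library but 1 of Hif1a flox and 1 of Hif1a Ahr flox cells, which had at most 0.0189 CPM. Csf1r, the receptor that marks macrophages and monocytes, was at 0.432, 0.119 and 0.265 CPM in Hif1a KO cells and 2.63, 1.05 and 4.1 CPM in Hif1a flox cells. It was at 3.58, 4.39 and 2.29 CPM in Ahr KO cells and 1.87, 2.24 and 1.93 CPM in Ahr flox cells. With both genes deleted it was at 0.628, 0.372 and 0.14 CPM in Hif1a Ahr KO cells and 1.1, 4.09 and 0.837 CPM in Hif1a Ahr flox cells. Csf1r thus fell in both lines with Hif1a deleted. In the Ahr line every Ahr KO library exceeded every flox library, though the change did not pass the test (adjusted p = 0.531). Within groups, the libraries had the same order for Csf1r as for Hmox1 in Hif1a flox and Hif1a Ahr flox cells and a different order in the other 4 groups. The part of such cells in the Hmox1 level was not tested.

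Differences between the lines were tested as differences of the KO effects. The Hif1a effect differed from the Ahr effect for 6 of the 9 genes, where 32.3% of all genes tested differed. It was higher for Nfe2l2 (by 1.79 ± 0.17, adjusted p = 6.09e-07), Gclm (1.15 ± 0.15, adjusted p = 1.76e-05), Txnrd1 (0.81 ± 0.09, adjusted p = 1.98e-06), Gclc (0.60 ± 0.12, adjusted p = 9.53e-04) and Prdx1 (0.56 ± 0.10, adjusted p = 4.79e-04), and lower for Keap1 (-0.31 ± 0.10, adjusted p = 0.0195). The Keap1 difference lost its call without Hif1a KO replicate 1 (adjusted p = 0.0509), Hif1a flox replicate 3 (0.0576), Ahr KO replicate 1 (0.0585) or Ahr flox replicate 3 (0.0649), and without TMM scaling (-0.167, adjusted p = 0.241). The Hif1a Ahr effect differed from the Hif1a effect for 2 of the 9, where 9.63% of all genes tested differed. The Hif1a Ahr effect was the lower for Nfe2l2 (by -0.66 ± 0.17, adjusted p = 0.0201) and for Prdx1 (-0.47 ± 0.10, adjusted p = 0.011). The Nfe2l2 difference lost its call when any 1 of 5 libraries was left out, at adjusted p 0.0564 without Hif1a Ahr KO replicate 2, 0.0542 without Hif1a Ahr flox replicate 1, 0.0579 without Hif1a KO replicate 2, 0.0571 without Hif1a flox replicate 1 and 0.0509 without Hif1a flox replicate 3. For Gclm this difference was -0.07 ± 0.15 (adjusted p = 0.826). The Hif1a Ahr effect differed from the Ahr effect for 4 of the 9, where 16.4% of all genes tested differed: Nfe2l2 (1.13 ± 0.17, adjusted p = 1.61e-04), Gclm (1.08 ± 0.15, adjusted p = 8.25e-05), Txnrd1 (0.59 ± 0.09, adjusted p = 1.18e-04) and Keap1 (-0.50 ± 0.10, adjusted p = 0.00166).

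On the log2 scale, the change with both genes deleted was also set against the sum of the changes in the Hif1a and Ahr lines. For Nfe2l2 the difference from that sum was -0.16 ± 0.20 (adjusted p = 0.943), and the 9 differences lay between -0.30 (Prdx1) and 0.40 (Hmox1). None was called by edgeR, DESeq2 or limma voom, where 0.0358% of all genes tested were called by edgeR, and 1 of the 9, Prdx1, had an unadjusted p under 0.05 in edgeR. The 3 flox groups were compared as well, and none of the 9 genes differed among them by any of the 3 tools (0.245% of all genes tested differed in edgeR), with none at an unadjusted p under 0.05 in edgeR. Ahr, not 1 of the 9, averaged 31.6 CPM in Hif1a flox, 76.5 CPM in Ahr flox and 66.3 CPM in Hif1a Ahr flox cells. The part of that Ahr level in the differences between lines was not tested.

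A wider set of 60 other genes of NRF2 biology, in 7 role lists, was read from the same fit; 57 passed the filter. In Hif1a KO cells 13 rose and 14 fell (22.8% and 24.6%, beside 17.6% and 17.8% of all genes tested), with a median change of 0.05. In Ahr KO cells 2 rose and 2 fell (3.51% each, beside 2.14% and 4.78% of all genes tested), with a median of 0.06. With the replicate block 8 rose and 4 fell. Calls over all genes tested also grew with that block, from 359 to 1034 rises and from 800 to 1389 falls. With both genes deleted 14 rose and 14 fell in Hif1a Ahr KO cells (24.6% each, beside 14.8% and 16.5%), with a median of 0.08. Without TMM scaling the list counts were 22 rises and 11 falls in Hif1a KO cells and 16 rises and 10 falls in Hif1a Ahr KO cells. Over all genes tested, rises and falls then numbered 4117 and 2155 in Hif1a KO cells, against 2948 and 2975 with the scaling. In Hif1a Ahr KO cells they numbered 2836 and 2236, against 2482 and 2763. The balance of rises and falls thus moved with the scaling.

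Partners and regulators of NRF2 differed among the small MAF genes, which encode its dimer partners. Maff was at 26.7, 25.1 and 15.4 CPM in Hif1a KO cells and 72.6, 65.9 and 61.1 CPM in Hif1a flox cells, and fell by 1.57 (SE 0.21, adjusted p = 4.20e-05). Mafk went the other way, at 58.3, 63.4 and 35.6 CPM in Hif1a KO cells and 27.2, 29.0 and 18.6 CPM in Hif1a flox cells, and rose (1.07 ± 0.27, adjusted p = 0.00673). Mafg fell in Hif1a KO cells by 0.29 (SE 0.07, adjusted p = 0.00377). Maff again fell in Hif1a Ahr KO cells (-1.38 ± 0.20, adjusted p = 1.41e-04), where Mafk rose (0.98 ± 0.27, adjusted p = 0.0135), though not without Hif1a Ahr flox replicate 2 (0.803, adjusted p = 0.0593). Bach2, a repressor that competes for the same DNA elements, rose in Ahr KO cells, with 10.3, 11.8 and 10.1 CPM against 5.52, 6.59 and 4.82 CPM in Ahr flox cells (0.93 ± 0.18, adjusted p = 0.00393), and also with both genes deleted (1.35 ± 0.18, adjusted p = 1.77e-05). Rbx1, a subunit of the ligase that KEAP1 serves, fell by 0.21 in Hif1a KO cells (SE 0.06, adjusted p = 0.00947). In this list of 9, 1 rose and 3 fell in Hif1a KO cells (11.1% and 33.3%, beside 17.6% and 17.8% of all genes tested). In Ahr KO cells 1 rose (11.1%, beside 2.14%) and none fell (4.78% of all genes tested). In Hif1a Ahr KO cells 3 rose and 2 fell (33.3% and 22.2%, beside 14.8% and 16.5%). With the replicate block, 2 rose (Bach2 and Sqstm1) and 1 fell (Mafk) in Ahr KO cells.

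Among 13 other glutathione genes, 3 rose (Gstt1, Ggct and Gstp1) and 3 fell (Glrx, Gstm1 and Gpx4) in Hif1a KO cells. That was 23.1% each way, beside 17.6% and 17.8% of all genes tested. None was called in Ahr KO cells (2.14% and 4.78% of all genes tested). In Hif1a Ahr KO cells 3 rose and 1 fell (23.1% and 7.69%, beside 14.8% and 16.5%). With the replicate block, 5 rose in Ahr KO cells (Chac1, Glrx, Gstm1, Gstt1 and Slc3a2) and none fell, and 5 rose and 4 fell in Hif1a KO cells. Over all genes tested, the block gave 1034 rises and 1389 falls in Ahr KO cells, and 3398 rises and 3416 falls in Hif1a KO cells. Gstt1, a glutathione transferase, was at 29.0, 15.7 and 22.3 CPM in Hif1a KO cells and 6.29, 5.36 and 7.6 CPM in Hif1a flox cells (1.80 ± 0.23, adjusted p = 2.87e-05). In Hif1a Ahr KO cells it was at 44.4, 50.4 and 43.1 CPM, against 5.87, 6.56 and 5.63 CPM in Hif1a Ahr flox cells (2.93 ± 0.24, adjusted p = 2.79e-07). Slc7a11, the cystine transporter that feeds glutathione synthesis, was at 1.1, 1.87 and 0.752 CPM in Hif1a Ahr KO cells and 0.216, 0.566 and 0.191 CPM in Hif1a Ahr flox cells, and rose (1.93 ± 0.45, adjusted p = 0.00334). Gpx4, which reduces lipid peroxides, fell in Hif1a Ahr KO cells by 0.48 (SE 0.07, adjusted p = 6.63e-05).

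The 11 other thioredoxin and peroxiredoxin genes had 1 rise and 4 falls in Hif1a KO cells and no call in Ahr KO cells. The shares in Hif1a KO cells were 9.09% and 36.4%, beside 17.6% and 17.8% of all genes tested. Hif1a Ahr KO cells had 3 rises and 4 falls (27.3% and 36.4%, beside 14.8% and 16.5%). Prdx5 fell where Prdx1 rose, with 167.2, 127.5 and 165.2 CPM in Hif1a KO cells and 331.4, 289.1 and 344.3 CPM in Hif1a flox cells (-1.07 ± 0.11, adjusted p = 1.12e-06). Prdx4 fell as well (-1.02 ± 0.11, adjusted p = 1.40e-06). Txnip, an inhibitor of thioredoxin, was at 330.2, 298.4 and 279.2 CPM in Hif1a Ahr KO cells and 565.8, 752.9 and 646.9 CPM in Hif1a Ahr flox cells, and fell (-1.11 ± 0.13, adjusted p = 6.15e-06). Sesn2, a stress-induced sestrin, rose in Hif1a KO cells (0.67 ± 0.10, adjusted p = 6.86e-05) and with both genes deleted (0.94 ± 0.10, adjusted p = 1.77e-06).

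Of 8 genes that supply NADPH, the reductant of both systems, 2 rose and 3 fell in Hif1a KO cells, and none was called in Ahr KO cells. The shares in Hif1a KO cells were 25.0% and 37.5%, beside 17.6% and 17.8% of all genes tested. In Hif1a Ahr KO cells 1 rose and 3 fell (12.5% and 37.5%, beside 14.8% and 16.5%). Pgd, an enzyme of the pentose phosphate pathway, was at 109.7, 110.6 and 110.6 CPM in Hif1a KO cells and 186.6, 178.8 and 195.9 CPM in Hif1a flox cells (-0.76 ± 0.06, adjusted p = 5.47e-08). It was at 116.0, 107.3 and 115.5 CPM in Hif1a Ahr KO cells and 170.7, 186.4 and 187.8 CPM in Hif1a Ahr flox cells (-0.69 ± 0.06, adjusted p = 2.06e-07). Taldo1, of the same pathway, rose in Hif1a KO cells (0.48 ± 0.08, adjusted p = 2.00e-04), as did Idh2, the mitochondrial isocitrate dehydrogenase (0.94 ± 0.18, adjusted p = 8.21e-04). G6pdx, which starts the pathway, rose in Hif1a Ahr KO cells (0.49 ± 0.09, adjusted p = 6.05e-04).

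Heme and iron genes had 2 rises and no fall among 6 tested in Hif1a KO cells. The share of rises was 33.3%, where 17.6% of all genes tested rose and 17.8% fell. Ahr KO cells had 1 rise (16.7%, beside 2.14%). Hif1a Ahr KO cells had 3 rises and 2 falls (50.0% and 33.3%, beside 14.8% and 16.5%). Fech, whose enzyme inserts iron into protoporphyrin to form heme, rose in both lines with Hif1a deleted (by 0.36 ± 0.08 in Hif1a KO cells, adjusted p = 0.00111, and by 0.42 ± 0.08 with both genes deleted, adjusted p = 3.86e-04). The ferritin heavy chain gene Fth1 averaged 387.0 CPM in Ahr KO cells and 296.8 CPM in Ahr flox cells (0.38 ± 0.09, adjusted p = 0.0122), a call lost without Ahr KO replicate 2 (adjusted p = 0.0758), Ahr flox replicate 1 (0.0855) or Ahr flox replicate 3 (0.0828). Its partner, the light chain gene Ftl1, rose in Hif1a Ahr KO cells (0.61 ± 0.11, adjusted p = 5.05e-04). Hmox2, the constitutive heme oxygenase, fell with both genes deleted, by 0.24 on the log2 scale (SE 0.07, adjusted p = 0.0186); this call was lost without Hif1a Ahr KO replicate 2 (adjusted p = 0.102), Hif1a Ahr KO replicate 3 (0.0961) or Hif1a Ahr flox replicate 3 (0.0665), without TMM scaling (0.0564) and in a fit to that line alone (0.12).

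Detoxification and export genes held the widest contrast between the lines. Nqo1, a quinone reductase, was at 5.24, 5.82 and 6.04 CPM in Hif1a KO cells and 0.492, 1.01 and 0.888 CPM in Hif1a flox cells, and rose (2.83 ± 0.24, adjusted p = 9.45e-08). It fell in Ahr KO cells, at 0.275, 0.213 and 0.207 CPM against 1.04, 0.741 and 0.891 CPM in Ahr flox cells (-1.93 ± 0.29, adjusted p = 6.12e-04). With both genes deleted the libraries overlapped, at 1.18, 1.1 and 1.21 CPM in Hif1a Ahr KO cells and 1.17, 0.619 and 0.728 CPM in Hif1a Ahr flox cells (0.47 ± 0.25, adjusted p = 0.163). Nqo1 and Nfe2l2 thus both rose in Hif1a KO cells and fell in Ahr KO cells, though the Nfe2l2 fall lost its call in the refits given above. The Nqo1 level was low, at no more than 1.21 CPM in any library outside the Hif1a KO group. Ephx1, an epoxide hydrolase, did the same, with 0.61 ± 0.17 in Hif1a KO cells (adjusted p = 0.00986, or 0.0567 without Hif1a flox replicate 1) and -1.38 ± 0.18 in Ahr KO cells (adjusted p = 1.17e-04). The exporter gene Abcc4 rose in Hif1a KO cells (0.79 ± 0.09, adjusted p = 2.30e-06) and with both genes deleted (0.66 ± 0.09, adjusted p = 1.72e-05). Abcc1 fell in Hif1a KO cells (-0.29 ± 0.06, adjusted p = 0.00116), and Osgin1 fell with both genes deleted (-1.45 ± 0.21, adjusted p = 1.05e-04). Of the 7 genes tested in this list, 4 rose and 1 fell in Hif1a KO cells. Those were 57.1% and 14.3%, beside 17.6% and 17.8% of all genes tested. None rose and 2 fell in Ahr KO cells (28.6% fell, beside 4.78%). In Hif1a Ahr KO cells 1 rose and 1 fell (14.3% each, beside 14.8% and 16.5%). Among Cat, Sod1 and Sod2, the catalase and superoxide dismutase genes, the sole call was a fall of Cat in Hif1a Ahr KO cells by 0.28 (SE 0.07, adjusted p = 0.00382), lost in a fit to that line alone (adjusted p = 0.0688).

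**Figure D5:**
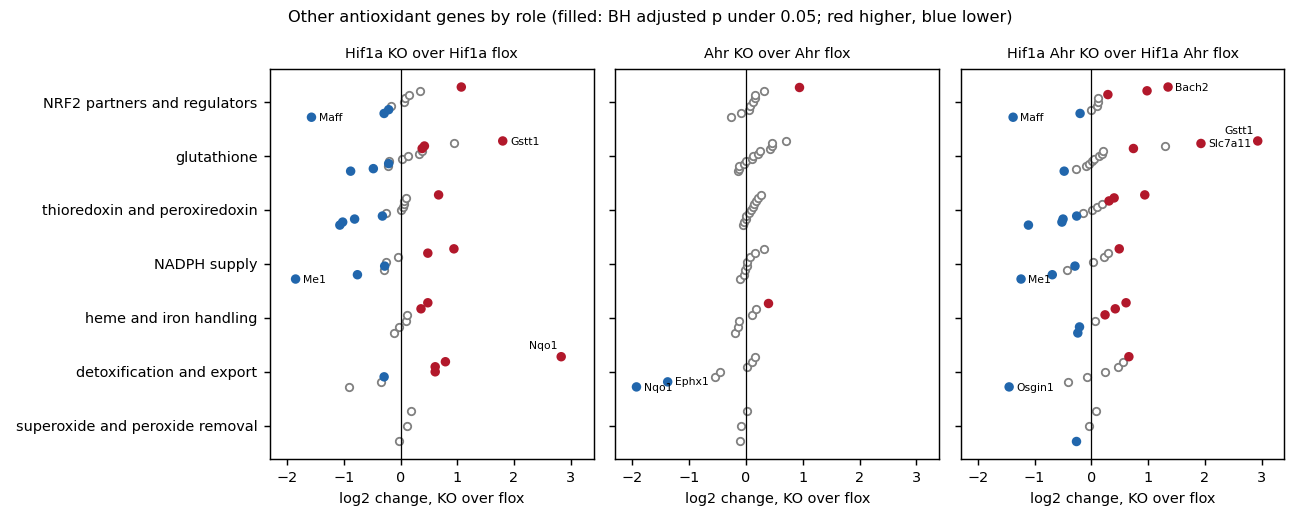
Log2 change, KO over flox, on the x axis for each tested gene of the 7 role lists (points, one row of points per list), with 1 panel per line; filled points had a BH adjusted p under 0.05, red for higher and blue for lower, and genes called with a change of at least 1.2 are named. Called genes lie on both sides of 0 in the Hif1a KO and Hif1a Ahr KO panels, and Nqo1 lies at 2.83 in the first and -1.93 in the Ahr KO panel.

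Across the 60 list genes, 5 rose in both lines with Hif1a deleted (Mafk, Gstt1, Sesn2, Fech and Abcc4), out of 13 that rose in Hif1a KO and 14 that rose in Hif1a Ahr KO cells. Another 10 fell in both (Maff, Rbx1, Gpx4, Txnip, Txnrd2, Prdx4, Prdx5, Pgd, Tkt and Me1), out of 14 in each. Of all genes tested, 17.6% rose in Hif1a KO cells and 14.8% in Hif1a Ahr KO cells, and 17.8% and 16.5% fell. The share of all genes called alike in both lines is not given here, so these shared counts are a description. The Rbx1 call in Hif1a Ahr KO cells was lost without Hif1a Ahr KO replicate 2 (adjusted p = 0.0527), Hif1a Ahr KO replicate 3 (0.0672) or Hif1a Ahr flox replicate 3 (0.0678), without the filter on low counts (0.0534), in a fit to that line alone (0.14), and in both lines without TMM scaling (0.183 in Hif1a KO and 0.0513 in Hif1a Ahr KO cells). The Gpx4 call in Hif1a KO cells was lost without Hif1a KO replicate 1 (0.0671), Hif1a KO replicate 3 (0.12), Hif1a flox replicate 1 (0.0827) or Hif1a flox replicate 3 (0.122), without the filter on low counts (0.0647) and without TMM scaling (0.241). In Hif1a Ahr KO cells the Txnrd2 call was lost without Hif1a Ahr KO replicate 3 (0.0873), Hif1a Ahr flox replicate 2 (0.0779) or Hif1a Ahr flox replicate 3 (0.0922), in a fit to that line alone (0.146) and without TMM scaling (0.0522). The Me1 call there was lost without Hif1a Ahr KO replicate 3 (0.082) or Hif1a Ahr flox replicate 2 (0.106) and in a fit to that line alone (0.0791).

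The genes most like each of the 9 over the 18 libraries were found by Pearson's r of log2(CPM + 0.5) among the 9987 genes that averaged 5 CPM or more. Genes with an uninformative symbol, such as Gm followed by a number, were left out of the ranking. Nfe2l2 was followed by Dse (0.985) and Tut4 (0.983), Gclm by Wdr7 and Klhl4 (0.968 each) and Txnrd1 by Atf6 (0.969) and Map4k4 (0.967). Keap1 was followed by Parp16 (0.954) and Lemd2 (0.946), Gclc by Pclaf (0.946) and Cenpi (0.942), and Prdx1 by Cbx3 (0.98) and Rbbp4 (0.952). For Srxn1 they were Pip4k2a (0.942) and Pik3cb (0.932), for Gsr Sh3bgrl (0.942) and Dcun1d1 (0.938), and for Hmox1 Esyt2 (0.853) and Ap2m1 (0.848). The libraries share their groups, so these values largely describe how groups differ, and no test was made of them.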

How the data were processed

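Per the submitters' processing notes, the authors' tools were kallisto 0.4.6, edgeR 3.17 and Trim Galore 0.6.4, and the build was GRCm39; settings, transcript annotation and strand handling are not given in the sources used here. The deposited count tables hold estimated counts per Ensembl gene, as kallisto gives them, not normalized, with 65% to 67.3% of values above 0 not whole. The deposited CPM tables hold log2 CPM; recomputing them from the count tables (prior count 2) gave a largest difference of 0, and tests used the counts. Symbols were matched for 52029 of 56953 identifiers. Gene overlaps come from GENCODE models of an older mouse build, and promoter sequences from RefSeq for GRCm38.p6. One of the symbols, Nnt, had a second identifier, and its calls were read from the first.

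Tests used edgeR 4.0.16 (R 4.3.3) with filterByExpr by group, TMM scaling (factors 0.941 to 1.06), a joint fit of the 18 libraries with 1 mean for each group, robust quasi-likelihood F tests (2-sided, 12 residual degrees of freedom, common biological coefficient of variation 0.117) and BH adjustment over 16747 genes. SE is the log2 change divided by the square root of F. Alternatives were DESeq2 1.42.0 (counts rounded to whole numbers), limma 3.58.1 voom, no TMM factors, no filter on low counts, a fit to the groups compared, the replicate number as a block, and leaving out each library. The parts of replicate spread and of depth in the precision were not measured.

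Same-numbered KO and flox libraries were taken as pairs where the correlation of their deviations from group means was above 0.1 for every pair: it was 0.3 to 0.53 in the Hif1a line and 0.33 to 0.53 in the Ahr line, and 0.07, 0.45 and 0.27 in the Hif1a Ahr line, which failed. The pairing comes from the data, as the labels give only a number. The main tests did not use the pairs, which entered only through the replicate block, an alternative fitted in all lines. Labelled biological replicates are not stated to come from separate animals, so p-values measure the spread between these samples.

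The genes, role lists and markers were chosen with earlier results of these data known. Text names the 9 genes, up to 3 called genes per role list and line by adjusted p, called genes shared by lines, and the 2 genes most like each of the 9. Ephx1, Gpx4, Glrx, Gstm1, markers, genes called with the replicate block and repeats of a gene in another line, as well as overlapping genes, were named after their values were seen.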

Additional observations from a re-analysis of the deposited data

Results flagged for a closer look

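These results differed between lines by a test of the difference of the KO effects (edgeR, BH adjusted p under 0.05), with 3 KO and 3 flox libraries in each line. The Hif1a effect minus the Ahr effect was 1.79 for Nfe2l2, 1.15 for Gclm, 0.81 for Txnrd1, 0.60 for Gclc, 0.56 for Prdx1 and -0.31 for Keap1 on the log2 scale. The Hif1a Ahr effect minus the Ahr effect was 1.13 for Nfe2l2, 1.08 for Gclm, 0.59 for Txnrd1 and -0.50 for Keap1. The Hif1a Ahr effect minus the Hif1a effect was -0.66 for Nfe2l2 and -0.47 for Prdx1. Among the role list genes, the Hif1a effect minus the Ahr effect was 4.76 for Nqo1 and 1.99 for Ephx1, the genes besides Nfe2l2 that were called in opposite directions in those lines. The Nfe2l2 fall in Ahr KO cells and the Ephx1 rise in Hif1a KO cells lost their calls in some refits.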

How the results depend on the processing

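DESeq2 and limma voom called as many of the 9 genes as edgeR in every comparison. Over the alternatives for single genes of the 9, 549 values kept their direction and side of the threshold, 16 lost a call, 7 gained one and 4 changed sign. For the other named genes 709 kept both and 47 lost a call. Of the 9 genes, 0 fell in Hif1a KO cells without TMM factors and 2 with the replicate block, and 1 rose in Ahr KO cells with the block. With the block 7 of the 9 rose in Hif1a KO cells, against 5 in the main test. Over all genes tested there, rises numbered 3398 with the block, against 2948, and falls 3416, against 2975. Falls in Ahr KO cells numbered 0 in a fit to that line alone and 0 to 1 when a library was left out. Differences between the Hif1a Ahr and Hif1a effects numbered 4 with the replicate block and 1 to 3 when a library was left out. Leaving out a library turned the sign of 2 uncalled values: Gsr in Ahr KO cells lay between -0.021 and 0.107, and Hmox1 in Hif1a Ahr KO cells between -0.317 and 0.124. For the Hif1a Ahr line the block rests on numbers that did not pair the libraries, and it changed no call of the 9 genes there. Over all genes in Ahr KO cells, rises numbered 359, against 1034 with the block, 584 with DESeq2 and 703 in a fit to that line, and falls 800, against 1389 with the block; leaving out a library gave 110 to 439 rises and 357 to 894 falls. In Hif1a Ahr KO cells, a fit to that line gave 1544 rises and 1556 falls, against 2482 and 2763. Without TMM factors, 22 list genes rose in Hif1a KO cells, against 13, and 4117 of all genes tested, against 2948. In Hif1a Ahr KO cells 8 list genes fell in a fit to that line and 9 without Hif1a Ahr KO replicate 3, against 14. The cause of these shifts was not tested. The sum contrast was not refitted on fewer groups, and the test among flox groups was not refitted with a block.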
